A study of Mus musculus with 39 samples.

Results

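Of the 45232 genes in the count files, 10 are followed here: the endothelial transcripts Egfl7, Pecam1, Cdh5, Kdr, Flt1, Tek, Tie1, Emcn and Vwf, and Vegfa, which encodes the ligand of Kdr and Flt1. They were listed by symbol and matched to the Ensembl identifiers of the files through GENCODE release M21, and all 10 were found and passed the filter on low counts in both tissues. The list was drawn up after the levels in quadriceps had been compared between juvenile diets, so that comparison is described below without a test. The reads are from polyadenylated RNA on an Ion Torrent Proton, from quadriceps muscle (20 libraries) and epididymal white adipose tissue (eWAT, 19 libraries) of male C57BL/6J mice aged 22 weeks. From week 6 to week 7 the diet was control (CD, with fat as 10% of calories) or high in fat (HFD, 45%). Chow was fed before that week and after it up to week 10, and every mouse then had the 45% fat diet to the end, so no group lacked HFD as an adult. Mice were fed or fasted for 16 h before collection. Quadriceps had 6 libraries for each fasted group and 4 for each fed group, and eWAT had 6 (CD fasted), 5 (HFD fasted) and 4 for each fed group. Nothing in the labels ties libraries to animals one by one, and the p-values therefore rest on a spread between samples that may be technical.

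Endothelial cells line all blood vessels and hold together through junction proteins such as PECAM1 (CD31) and VE-cadherin, the product of Cdh5. VEGF-A, made in muscle largely by the fibres, signals to them through KDR (VEGFR-2), while FLT1 (VEGFR-1) binds the same ligand tightly and acts mostly as a decoy. TEK (Tie2) is the receptor of the angiopoietins and TIE1 its partner, EMCN is a surface mucin of capillaries and veins, and VWF is the clotting glycoprotein that endothelium stores and releases. EGFL7 is a protein that endothelium secretes into its matrix, and its gene is the host of the endothelial microRNA miR-126.

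Sequences are shown for the 3 genes whose transcripts were lower in fasted quadriceps (Egfl7, Vegfa and Kdr) and for Flt1, the other VEGF receptor, which did not pass. They are RefSeq windows on GRCm38.p6 of 300 bases, from 250 bases before to 50 after an annotated start, read 5′ to 3′ on the strand of the gene. Egfl7 has 3 such windows, of which the first 2 are given, and Vegfa has 2, of which the first is given. Capitals mark AGGAAG or its reverse complement CTTCCT, a core of sites for ETS factors, a family that is prominent in endothelium.
Egfl7 start 1, chr2:26580833-26581132 (+ strand): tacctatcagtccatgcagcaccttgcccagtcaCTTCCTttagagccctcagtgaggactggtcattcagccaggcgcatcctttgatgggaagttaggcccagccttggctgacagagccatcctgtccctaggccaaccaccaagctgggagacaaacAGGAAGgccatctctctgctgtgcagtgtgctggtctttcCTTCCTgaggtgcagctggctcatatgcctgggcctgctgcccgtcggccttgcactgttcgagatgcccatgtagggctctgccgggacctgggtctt
Egfl7 start 2, chr2:26583615-26583914 (+ strand): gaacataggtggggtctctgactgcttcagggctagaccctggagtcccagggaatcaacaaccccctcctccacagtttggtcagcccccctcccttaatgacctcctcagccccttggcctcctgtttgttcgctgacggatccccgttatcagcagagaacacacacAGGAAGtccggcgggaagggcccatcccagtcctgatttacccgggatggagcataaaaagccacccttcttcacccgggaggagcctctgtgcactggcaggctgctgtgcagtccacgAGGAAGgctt
Vegfa start 1, chr17:46032328-46032627 (- strand): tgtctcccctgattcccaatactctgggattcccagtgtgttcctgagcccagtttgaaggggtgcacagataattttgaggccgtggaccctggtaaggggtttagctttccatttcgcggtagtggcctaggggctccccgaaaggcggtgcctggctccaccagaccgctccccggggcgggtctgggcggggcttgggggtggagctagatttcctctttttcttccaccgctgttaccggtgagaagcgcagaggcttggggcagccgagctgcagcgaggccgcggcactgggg
Kdr start 1, chr5:75978406-75978705 (- strand): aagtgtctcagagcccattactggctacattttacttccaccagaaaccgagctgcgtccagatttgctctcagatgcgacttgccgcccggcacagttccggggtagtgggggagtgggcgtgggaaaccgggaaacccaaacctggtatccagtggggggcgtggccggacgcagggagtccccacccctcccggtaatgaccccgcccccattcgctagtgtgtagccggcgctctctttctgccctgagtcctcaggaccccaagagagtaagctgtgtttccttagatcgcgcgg
Flt1 start 1, chr5:147725962-147726261 (- strand): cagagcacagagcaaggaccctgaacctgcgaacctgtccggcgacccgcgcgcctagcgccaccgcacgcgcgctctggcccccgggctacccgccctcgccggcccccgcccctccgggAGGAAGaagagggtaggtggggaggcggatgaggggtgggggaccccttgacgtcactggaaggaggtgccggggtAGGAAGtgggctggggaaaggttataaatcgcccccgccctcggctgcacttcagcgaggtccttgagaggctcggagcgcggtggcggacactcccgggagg
The first Egfl7 window held this core 3 times, the second 2 times and the third 0 times, and the Flt1 window held it 2 times. It was not among the letters of the Kdr window or of the first Vegfa window. Of 32851 RefSeq windows of the same length, 35.4% held it on either strand, so its presence is a description and no more. Windows were matched for 7 of the 10 genes, and Pecam1, Cdh5 and Vwf had none. The mature microRNA carried by the Egfl7 locus is printed with its seed, bases 2 to 8, in capitals.
mmu-miR-126a-3p, chr2:26591402-26591423 (+ strand): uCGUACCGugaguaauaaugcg
The miR-126 gene itself, Mir126a, had 0 counts in all libraries. Its whole length lies within exons of Egfl7 on the same strand, and the reads are from polyadenylated RNA. These counts are therefore no measure of the microRNA. Egfl7 (ENSMUSG00000026921) spans 2:26580014-26593120 on GRCm38, and its exons share 64 bases with Agpat2 on the opposite strand. They also share 264 bases with Gm20532 and 73 with Mir126a on the same strand, and 58 with Mir126b on the opposite one. Gm20532 and Mir126b had 0 to 2 counts per library. Reads in the bases shared with Gm20532 or Mir126a could not be assigned to Egfl7 by strand, and the strand setting of the counting is not given in the sources used here, so the Egfl7 counts are uncertain to that extent. In quadriceps Agpat2 lay between 1.74 and 19.1 CPM (counts scaled to a common library size), and its log2 level had r = 0.021 with that of Egfl7 across the 20 libraries. In eWAT it lay between 34.7 and 790 CPM, with r = 0.604 across the 19 libraries.

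Between 6199586 and 14993394 reads were counted per library, 18.44% to 39.91% of the reads listed in a file. Counts per library ran from 387 to 11800 for Vegfa and from 157 to 6443 for Egfl7, but only from 6 to 400 for Emcn and from 6 to 766 for Tek, so these last 2 rest on the fewest reads. Levels are CPM on library sizes scaled by TMM within a tissue, except that levels per kilobase and the comparison of the tissues use TMM over all 39 libraries and marker sums use plain library sizes. Differences are log2 with their standard error (SE) from edgeR's quasi-likelihood fit, with p adjusted by Benjamini-Hochberg across all genes tested and called below 0.05. Among the libraries labelled eWAT, 13 carried abundant epididymal transcripts and 6 did not, a split given with the tissue comparison and the interaction in eWAT.

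In quadriceps 3 of the 10 transcripts, Vegfa, Kdr and Egfl7, were lower in fasted than in fed mice, and none was higher. Over all 12213 genes tested, 18.4% were lower and 19.2% higher, so 3 of 10 is not set apart from the other genes. The median difference of the 10 was -0.21 on the log2 scale against -0.02 for all genes tested. For Kdr and Egfl7, fewer endothelial cells and less RNA per endothelial cell were not told apart in this tissue RNA.

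Vegfa (ENSMUSG00000023951, 17:46016993-46032369), the ligand, showed the largest difference of the 10. In the CD fed libraries it was at 224.4, 333.3, 269.2 and 213.9 CPM and in the HFD fed libraries at 229.0, 189.9, 220.9 and 213.0 CPM. The fasted libraries ran from 94.3 through a median of 114.2 to 124.3 CPM after CD and from 104.9 through 114.6 to 134.7 CPM after HFD. No fasted library reached the lowest fed one, so 12 libraries lay wholly below the other 8. The fasted mean was 114 ± 13.1 CPM (SD, n = 12) and the fed mean 237 ± 44.9 CPM (n = 8), a fall of 2.07-fold (log2 -1.05 ± 0.09 SE; edgeR adjusted p = 1.23e-10). It fell after both juvenile diets, by 1.24 ± 0.12 on the log2 scale after CD (edgeR adjusted p = 1.64e-08) and by 0.86 ± 0.12 after HFD (edgeR adjusted p = 6.35e-06).

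**Figure D1:**
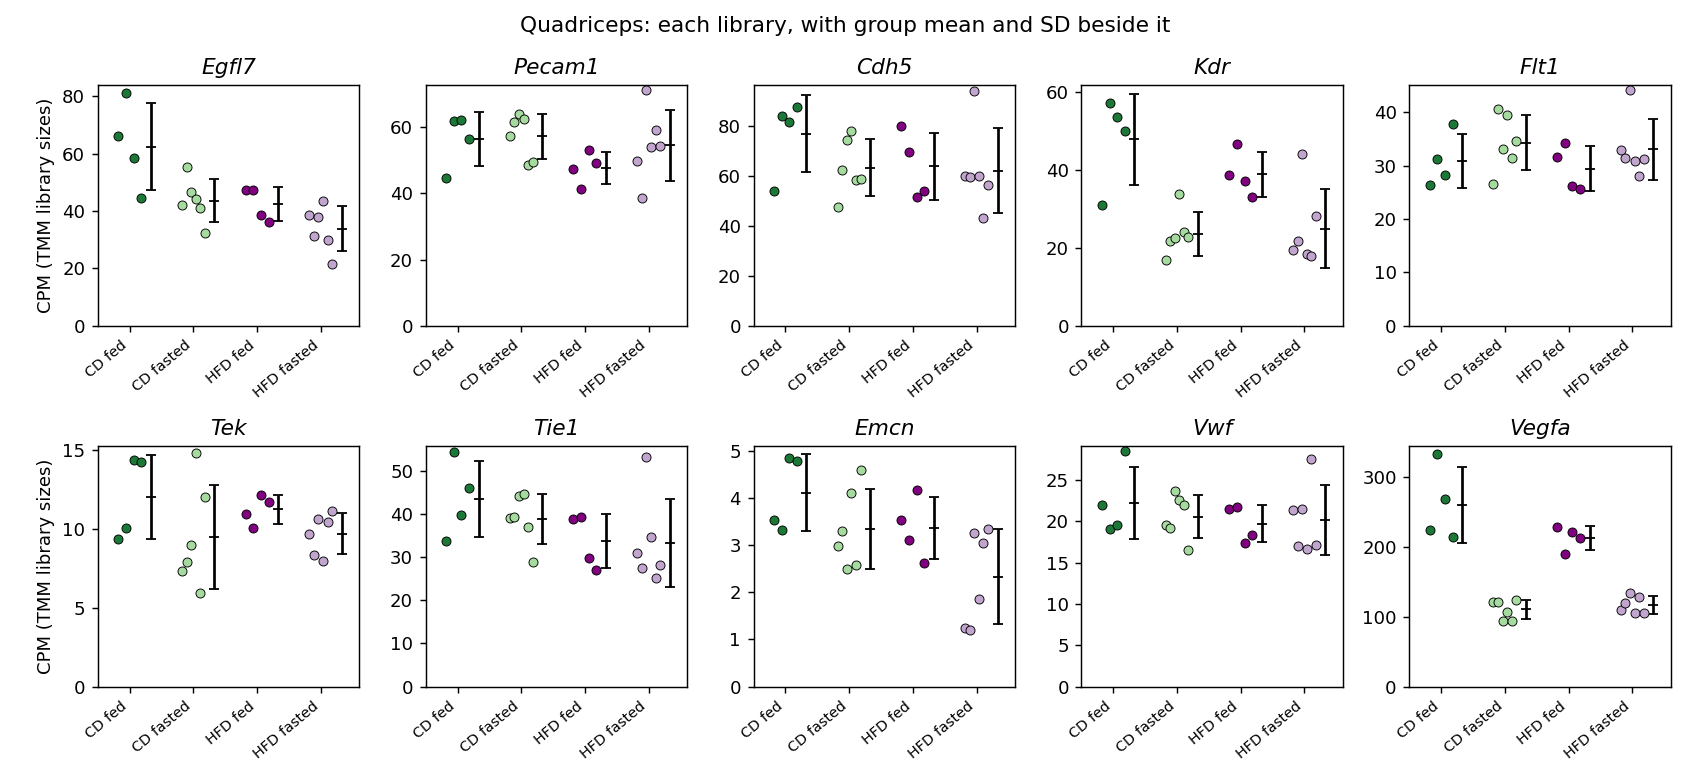
Level of each of the 10 transcripts in the 20 quadriceps libraries, in CPM on TMM library sizes; points are libraries by group, and the bar beside them is the group mean with SD. The 12 fasted libraries lay below the 8 fed ones for Vegfa, while the other 9 transcripts overlapped between feeding states. The share of all genes that separate in this way is not given here, so nothing is read from this count.

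Kdr (ENSMUSG00000062960, 5:75932827-75978458), the main signalling receptor of VEGF-A, was also lower. It was at 30.9, 57.2, 53.5 and 49.9 CPM in the CD fed libraries and at 38.7, 46.6, 37.1 and 33.1 CPM in the HFD fed ones. After fasting it ran from 16.8 through a median of 22.6 to 33.8 CPM in CD libraries and from 17.9 through 20.6 to 44.1 CPM in HFD libraries. Of the 12 fasted libraries, 10 lay below all fed ones, and the highest fasted value was that of HFD fasted replicate 3. The fall was 1.78-fold (log2 -0.83 ± 0.16; edgeR adjusted p = 0.000341). Within juvenile diets it passed after CD (log2 -1.03 ± 0.23; edgeR adjusted p = 0.00244) and not after HFD (-0.63 ± 0.23; edgeR adjusted p = 0.0529).

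Flt1 (ENSMUSG00000029648, 5:147561604-147726011), the decoy receptor, had a fasted mean of 33.7 ± 5.24 CPM (SD, n = 12) and a fed mean of 30.2 ± 4.38 CPM (n = 8). That difference of 0.16 ± 0.10 (log2) did not pass (edgeR adjusted p = 0.207), and the groups overlapped. Within a library the ratio of Kdr counts to Flt1 counts needs no scaling, and it was compared directly, a choice made after the values had been seen. It averaged 0.686 ± 0.111 (SD, n = 6) in CD fasted, 1.55 ± 0.362 (n = 4) in CD fed, 0.736 ± 0.173 (n = 6) in HFD fasted and 1.32 ± 0.0844 (n = 4) in HFD fed libraries. The highest fasted value was 0.998 and the lowest fed value 1.17, so the feeding states did not overlap. The share of gene pairs whose ratio separates in this way is not given here, so nothing is read from the lack of overlap. The mean log2 ratio differed between fasted and fed libraries by -1.17 after CD and by -0.87 after HFD, given as a description without a test.

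**Figure D2:**
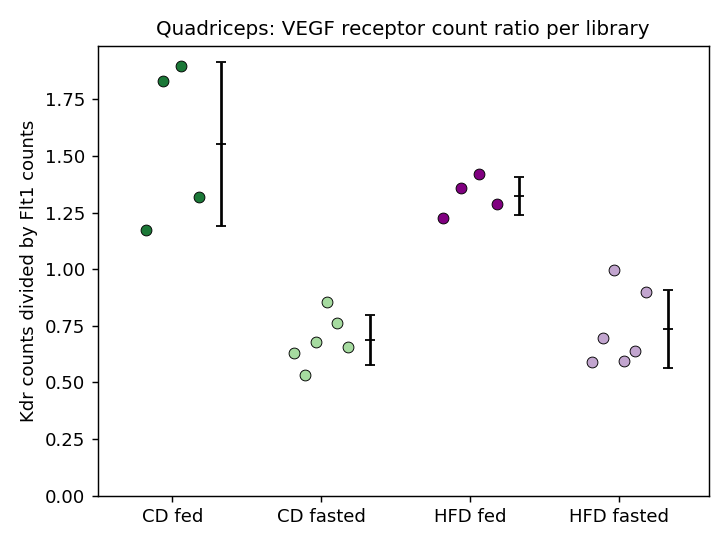
Kdr counts divided by Flt1 counts in each quadriceps library, by juvenile diet and feeding state; points are libraries, and the bar beside them is the group mean with SD. Fasted libraries lay between 0.534 and 0.998 and fed ones between 1.17 and 1.90, with no overlap after either juvenile diet. The ratio was chosen after the values had been seen. The share of gene pairs that separate in this way is not given here, so nothing is read from the lack of overlap.

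Egfl7 was at 66.0, 81.0, 58.3 and 44.6 CPM in CD fed and at 47.4, 47.5, 38.6 and 36.1 CPM in HFD fed quadriceps. In fasted libraries it ran from 32.4 through 43.1 to 55.2 CPM after CD and from 21.5 through 34.7 to 43.6 CPM after HFD. The feeding states overlapped, although 11 of 12 fasted libraries lay below the median of the fed ones. Its fall with fasting was 1.34-fold (log2 -0.43 ± 0.12; edgeR adjusted p = 0.00599). It passed after CD (-0.52 ± 0.17; edgeR adjusted p = 0.0254) and not after HFD (-0.33 ± 0.17; edgeR adjusted p = 0.175).

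The other 6 endothelial transcripts did not pass for fasting in quadriceps. For the angiopoietin receptor Tek (ENSMUSG00000006386, 4:94739289-94874976) the difference was -0.27 ± 0.13 (log2), and for its partner Tie1 (ENSMUSG00000033191, 4:118471191-118490061) it was -0.09 ± 0.13. The mucin Emcn (ENSMUSG00000054690, 3:137341067-137432185) differed by -0.40 ± 0.19. Among the junction genes, Cdh5 (ENSMUSG00000031871, 8:104101625-104144511) differed by -0.16 ± 0.13 and Pecam1 (ENSMUSG00000020717, 11:106654217-106750628) by 0.11 ± 0.10. Vwf (ENSMUSG00000001930, 6:125546774-125686679) differed by -0.04 ± 0.11. Their edgeR adjusted p ran from 0.11 for Emcn to 0.818 for Vwf.

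After juvenile CD alone, 3 of the 10 were called lower with fasting (Vegfa, Kdr and Egfl7) beside 10.4% of all genes tested. After juvenile HFD the call was Vegfa alone, beside 9.70% of all genes. This does not show that the responses differ: the test of the difference itself, the juvenile diet by fasting interaction, called 0 of the 10 and 0 of all 12213 genes in edgeR (0% called), with 300 genes at an unadjusted p under 0.05. DESeq2 and limma voom also called 0 of the 10, and the shares of all genes called there are not given here. For Vegfa the interaction was 0.37 ± 0.18 on the log2 scale and for Kdr 0.40 ± 0.33, with edgeR adjusted p = 1 for each.

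The 32 other endothelial markers moved in both directions with fasting: 10 were lower, 4 higher, and 18 did not pass. Over all genes tested 18.4% were lower and 19.2% higher. Podxl, a surface sialomucin, fell by 1.28 ± 0.10 on the log2 scale (edgeR adjusted p = 1.33e-11). Aplnr, the apelin receptor, fell by 1.69 ± 0.18 (edgeR adjusted p = 8.11e-09), and Cd93 by 0.64 ± 0.12 (edgeR adjusted p = 6.7e-05). The 4 higher ones, named after their values were seen, were the tight junction claudin Cldn5 (0.86 ± 0.19), Gpihbp1, which carries lipoprotein lipase across capillary endothelium (0.45 ± 0.11), Adgrf5 (0.36 ± 0.09) and the sphingosine phosphate receptor S1pr1 (0.35 ± 0.12). The summed level of the 32 averaged 447 ± 55.9 and 512 ± 54.3 CPM on plain library sizes in CD fasted (n = 6) and CD fed (n = 4) libraries, and 383 ± 99.2 and 436 ± 28.1 CPM in HFD fasted (n = 6) and HFD fed (n = 4) ones. With this sum as a covariate, Vegfa (-0.997 ± 0.10), Kdr (-0.56 ± 0.11) and Egfl7 (-0.39 ± 0.14) were called lower, and Flt1 was called higher (0.31 ± 0.09; edgeR adjusted p = 0.0112). That fit decides nothing about the number of endothelial cells, since a sum of markers of the same cells takes away an endothelial difference whatever its origin. Markers in the sum also moved with fasting themselves, and the share of all genes called in that fit is not given here.

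The counts of the next lists stand beside 18.4% of all genes tested lower and 19.2% higher. Of the 8 other VEGF ligands, receptors and co-receptors, 4 were lower and 1 higher. Plxnd1, a semaphorin receptor of endothelium, fell by 0.87 ± 0.08 (edgeR adjusted p = 7.34e-10) and the VEGF co-receptor Nrp1 by 0.65 ± 0.13 (edgeR adjusted p = 0.000191). The ligand Vegfd rose by 1.42 ± 0.18 (edgeR adjusted p = 1.84e-07). Angpt1, the agonist of TEK, fell by 1.03 ± 0.22 (edgeR adjusted p = 0.000374), while Angpt2 (-0.13 ± 0.25) and the phosphatase Ptprb (-0.05 ± 0.09) did not pass. Of 12 Notch pathway genes tested, 4 were lower, among them Jag2 (-0.83 ± 0.12), Notch3 (-0.70 ± 0.11) and Hes1 (-1.10 ± 0.18), and 2 were higher. Of 13 hypoxia factors and targets, 4 were higher and 3 lower: Arnt, the partner of the HIF proteins, rose by 1.32 ± 0.09 and Bnip3 by 1.11 ± 0.11, and Ankrd37 fell by 1.69 ± 0.29.

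Some markers of other cells were also called for fasting, beside 18.4% of all genes tested lower and 19.2% higher. The summed fibroblast markers averaged 335 ± 63.4 CPM in CD fasted and 637 ± 154 CPM in CD fed libraries, and 311 ± 144 and 707 ± 123 CPM after HFD. Of 6 fibroblast markers 4 were lower, with Col1a1 down by 1.68 ± 0.27 and Lum by 1.25 ± 0.16. Of 9 pericyte and smooth muscle markers tested 4 were lower, among them Acta2 (-0.95 ± 0.12), Notch3 and Tagln (-0.51 ± 0.12). Of 5 lymphatic markers 3 were lower (Ccl21a -1.55 ± 0.32, Flt4 -0.52 ± 0.19, Pdpn -0.56 ± 0.22). No macrophage marker of 8 and no platelet marker of 2 tested passed. Nearest among the macrophage markers were Mrc1 (-0.43 ± 0.18), C1qa (-0.49 ± 0.21) and C1qc (-0.48 ± 0.21). Cd163, named after its value was seen, came next and in the other direction (0.62 ± 0.28). The platelet markers were Pf4 (-0.27 ± 0.26) and Itga2b (0.11 ± 0.30). Of 8 fast fibre markers 2 were lower (Mylpf -0.39 ± 0.12 and Pvalb -0.31 ± 0.13), and of 6 adipocyte markers Cidec was higher (2.69 ± 0.83). Hepatocyte transcripts reached 562.3 CPM in a CD fed library, and 3 of 4 tested were lower in fasted libraries, while epididymal markers reached 1.121 CPM in sum at most. The part of these cells in the fall of Vegfa, Kdr and Egfl7 was not tested.

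**Figure D3:**
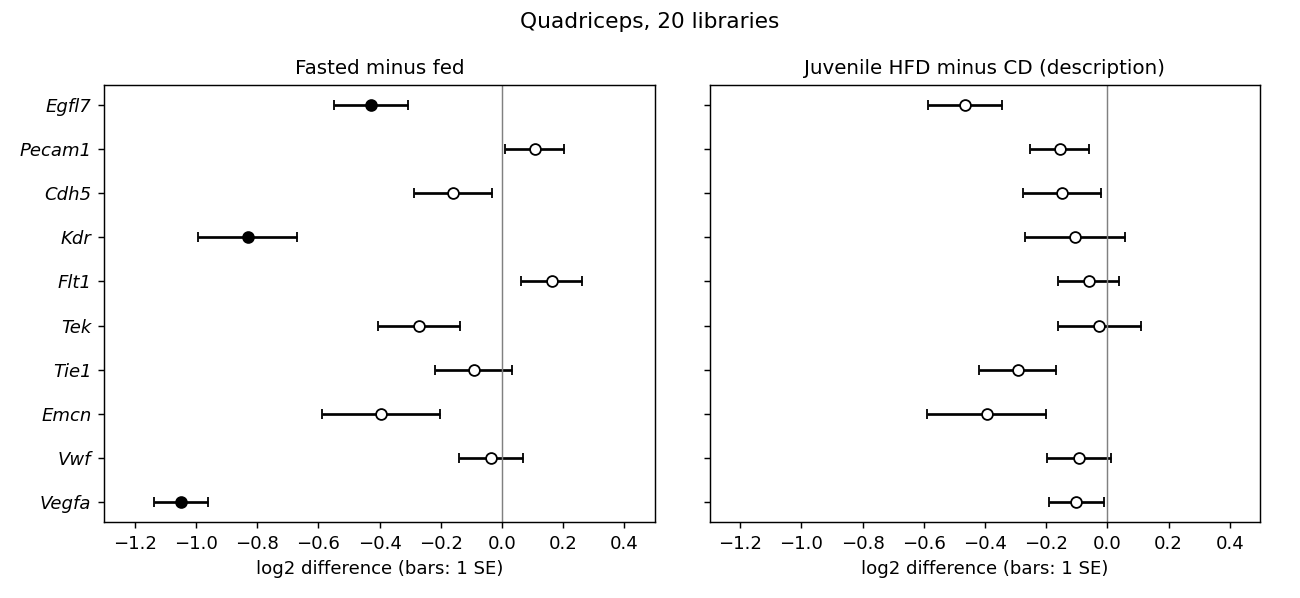
Log2 difference of each transcript in quadriceps with 1 SE, fasted minus fed on the left and juvenile HFD minus CD on the right, from 20 libraries. Filled points passed edgeR's adjusted p for fasting (Vegfa -1.05, Kdr -0.83, Egfl7 -0.43); the right panel is a description without a test, and its points lie below 0 in this fit, though those of Cdh5, Kdr, Flt1 and Tek did not under every alternative.

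Juvenile diet in quadriceps, the comparison known when the genes were listed, is given as values only. The 4 HFD fed libraries of Egfl7 (36.1 to 47.5 CPM) lay below the median of the CD fed ones (62.2 CPM), and 2 of them lay below all CD fed libraries. Among fasted libraries, 5 of 6 HFD values lay below the CD median of 43.1 CPM and 3 lay below all CD values. Egfl7 averaged 37.3 ± 8.09 CPM (SD, n = 10) after HFD and 51.1 ± 14.3 CPM (n = 10) after CD, a log2 difference of -0.47 ± 0.12, with -0.56 ± 0.19 in fed and -0.37 ± 0.15 in fasted mice. The diets overlapped in both feeding states.

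Emcn and Tie1 followed in size. Emcn averaged 2.74 ± 0.999 CPM after HFD and 3.65 ± 0.877 CPM after CD (log2 -0.39 ± 0.19), and Tie1 33.5 ± 8.46 and 40.7 ± 7.08 CPM (-0.29 ± 0.13). The remaining 7 differed by between -0.16 (Pecam1) and -0.03 (Tek), with Vegfa at -0.10 ± 0.09 and Kdr at -0.11 ± 0.16. In this fit all 10 averages over feeding states were below 0. In fasted mice alone 3 were above 0, namely Kdr (0.09 ± 0.21), Tek (0.04 ± 0.17) and Vegfa (0.09 ± 0.11). None of the 10 was called, beside 3 of 12213 genes (0.0246%), from which nothing is read because the list was chosen on this contrast. The medians were -0.13 for the 10, -0.18 for the 32 other endothelial markers and 0.01 for all genes tested. With the sum of the other endothelial markers as a covariate the Egfl7 difference was -0.42, while Cdh5 (0.07), Kdr (0.22), Flt1 (0.11) and Tek (0.10) turned above 0. That fit does not show that Egfl7 differs apart from endothelial content. Its covariate sums markers of the same cells, and the list was chosen on this contrast. Tek was also above 0 without any 1 of 4 libraries, at up to 0.05.

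Across the 20 quadriceps libraries the 9 endothelial transcripts did not vary as a block. The 36 pairwise correlations of their log2 CPM ran from -0.04 to 0.82 with a median of 0.30, as a description over libraries that share groups and a common scaling. Cdh5 and Tie1 were closest (r = 0.82), followed by Cdh5 with Kdr (0.71), and Egfl7 with Tek was lowest (-0.04). Once group means were removed the 36 ran from -0.44 to 0.83 with a median of 0.28. Kdr and Flt1 had r = 0.16 over all libraries and 0.73 once group means were removed. Vegfa had r = 0.78 with Kdr and -0.32 with Flt1, which became 0.19 and 0.03 once group means were removed. Genes most like Egfl7 over these libraries were Fxyd1 (r = 0.89), a second gene with r = 0.89 known here only as ENSMUSG00000052429, Tcf15 (0.88), Rasgrp2 (0.87) and Map4k2 (0.86). Most like the mean of the 9 were Elk3 (0.84), Ehd2 (0.83), Ephb4 (0.83), Pkn3 (0.82) and Msn (0.82). Most like Vegfa were Relt (0.94), Myod1, Nmrk2, Cited4 and Tfrc, all at r = 0.94. Myod1, a transcription factor of the muscle lineage, was itself lower in fasted quadriceps (log2 -2.18; edgeR adjusted p = 2.49e-14).

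Per kilobase of exon, on library sizes scaled over all 39 libraries, Vegfa was the most abundant of the 10 in quadriceps, at 58.59 ± 25.95 CPM per kb (SD, n = 20). Cdh5 (24.0 ± 5.49), Egfl7 (18.9 ± 6.03), Pecam1 (13.3 ± 1.98) and Tie1 (11.5 ± 2.69) came next, and within that run no neighbour differed from the next by more than the larger SD of the pair. Kdr (5.44 ± 2.30), Flt1 (3.65 ± 0.561) and Tek (3.38 ± 0.797 CPM per kb) formed a second run of this kind, with Vwf (1.96 ± 0.309) and Emcn (0.904 ± 0.300) below. Exon length is that of all annotated isoforms together, which lowers the value of genes with long minor isoforms. In eWAT Vegfa and Egfl7 led at 34.9 ± 30.2 and 23.3 ± 23.7 CPM per kb (n = 19) and Emcn was again last, but every neighbouring pair there differed by less than the larger SD.

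**Figure D4:**
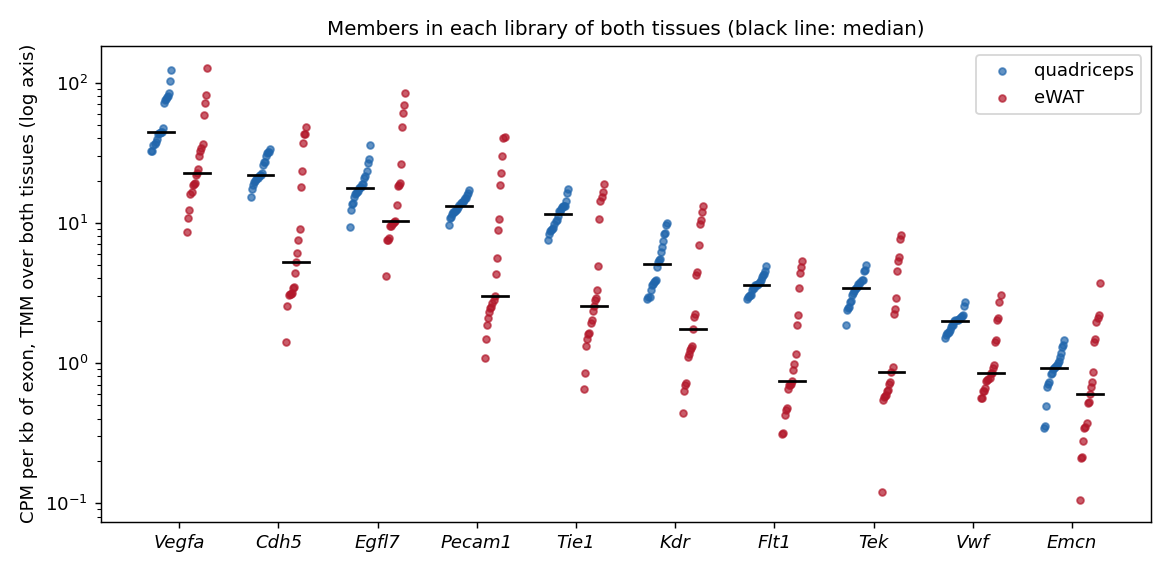
Level of the 10 transcripts per kilobase of exon in each library of quadriceps (blue, 20 libraries) and eWAT (red, 19 libraries), on a log axis with the median as a black line, on TMM library sizes over all 39 libraries. On this scaling the eWAT medians lie below those of quadriceps for all 10, and on plain library sizes for 6 (not Egfl7, Emcn, Vwf or Vegfa).

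Compared with quadriceps in a fit of all 39 libraries, 8 of the 10 were lower in eWAT, beside 28.1% of 17083 genes lower and 83.0% called in either direction. The differences ran from -0.85 ± 0.17 (log2) for Vwf to -1.58 ± 0.24 for Flt1, and the exceptions were Egfl7 (-0.07 ± 0.24; edgeR adjusted p = 0.794) and Emcn (-0.24 ± 0.27; edgeR adjusted p = 0.417). These directions rested on the scaling. The median difference of all genes tested was 0.64 with TMM and 1.89 on plain library sizes, and that of the 10 was -0.94 and 0.29, so the median of the 10 lay below that of all genes on either. On plain library sizes 0 of the 10 were lower and 3 higher, Egfl7 (1.17 ± 0.23; edgeR adjusted p = 2.32e-05), Emcn (1.00 ± 0.28) and Vwf (0.41 ± 0.18), beside 10.6% of genes lower and 80.9% higher. The TMM values also rested on which eWAT libraries were used. The summed level of 10 epididymal markers was 17710 to 58000 CPM in 13 eWAT libraries and 5.909 to 40.95 CPM in the other 6, a split added after the data were seen. The counts with the 13 or the 6 alone are a description, since the share of all genes called there is not given here. With the 13 alone all 10 transcripts were lower in eWAT, by 0.99 for Egfl7 and by 2.56 for Tie1. With the 6 alone, which come from 3 of the 4 groups, 5 were higher in eWAT and 2 lower: Egfl7 at 1.13 ± 0.14 (edgeR adjusted p = 4.44e-08), Emcn at 0.79 ± 0.22, Kdr at 0.67 ± 0.18, Tek at 0.41 ± 0.16 and Pecam1 at 0.33 ± 0.11 were higher, and Flt1 (-0.53 ± 0.13) and Vwf (-0.36 ± 0.15) were lower. On TMM sizes Egfl7, Emcn, Kdr, Tek and Pecam1 thus changed direction with the split, and Flt1 and Vwf were lower in both.

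Within eWAT the endothelial transcripts varied together. Their 36 pairwise correlations ran from 0.80 to 0.98 with a median of 0.94 over 19 libraries, and Vegfa had r between 0.75 and 0.91 with the 9. All 10 averaged higher in the 6 libraries low in epididymal markers. Egfl7 averaged 282 ± 137 CPM there (SD, n = 6) and 59.2 ± 24.7 CPM in the other 13, Pecam1 254 ± 131 and 35.3 ± 30.2 CPM, Kdr 132 ± 46.8 and 21.1 ± 15.9 CPM, and Vegfa 450 ± 227 and 131 ± 49.9 CPM. The 6 libraries were also the higher ones for adipocyte markers, with a median sum of 27220 CPM against 1661 CPM. They differed among themselves as well, since HFD fasted replicate 4 had an adipocyte sum of only 940.1 CPM beside a hepatocyte sum of 131600 CPM, and it held the lowest Egfl7 value of the 6, 106.8 CPM.

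**Figure D5:**
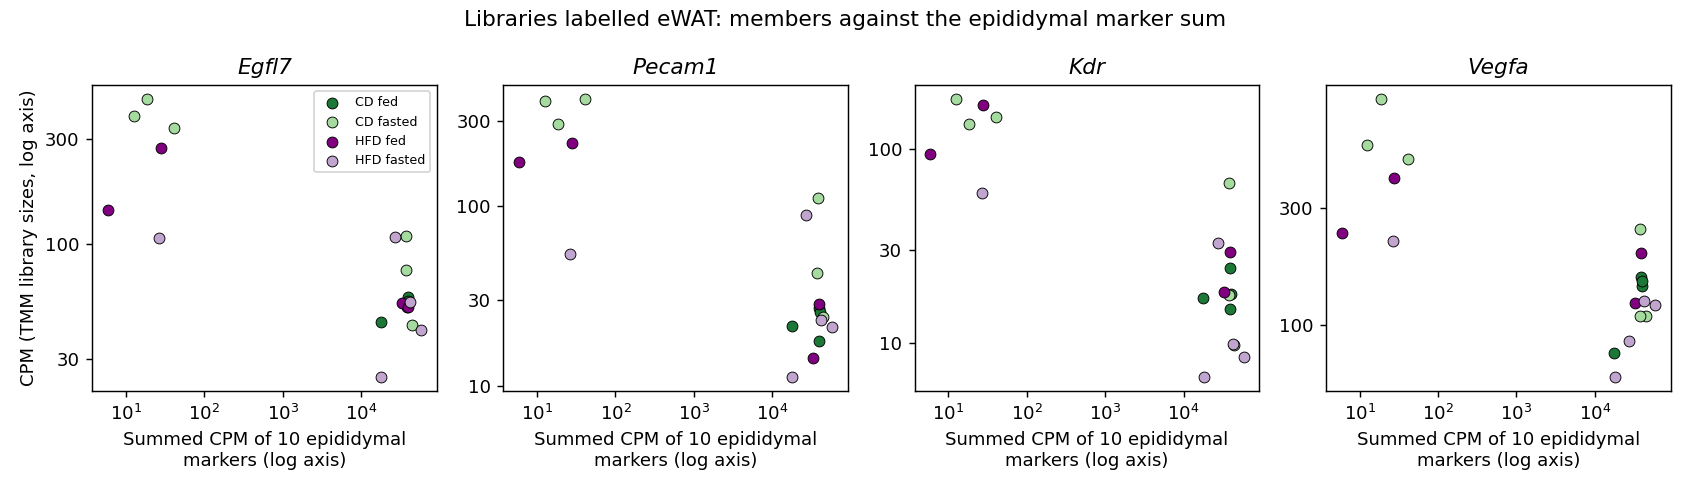
Egfl7, Pecam1, Kdr and Vegfa (CPM on TMM library sizes) against the summed CPM of 10 epididymal markers in the 19 libraries labelled eWAT, both axes log, coloured by group. The 6 libraries with sums of 5.909 to 40.95 CPM are mostly CD fasted (3) and HFD fed (2), with 1 HFD fasted and no CD fed library among them.

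Neither fasting nor juvenile diet called any of the 10 in eWAT, nor any of 16603 genes in edgeR (0% each), with 1448 and 282 genes at an unadjusted p under 0.05. DESeq2 called 91 and 1 gene in all and limma voom 0, with none of the 10 under either. For fasting the differences ran from -0.14 ± 0.51 (Tie1) to 0.85 ± 0.60 (Pecam1), and for juvenile diet from -0.40 ± 0.39 (Vegfa) to 0.21 ± 0.59 (Tek). With SEs of this size, differences as large as those of Egfl7 or Kdr in quadriceps were not detectable.

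In eWAT the juvenile diet by fasting interaction was called, with a negative sign, for 6 of the 10, beside 5.82% of genes lower and 8.41% called in either direction. Pecam1 was at 21.5, 27.1, 17.7 and 25.9 CPM in the CD fed libraries and ran from 24.1 through 198.7 to 396.2 CPM in the 6 CD fasted ones. It was at 14.3, 224.6, 175.9 and 28.6 CPM in the HFD fed libraries and at 11.2, 21.4, 89.0, 54.1 and 23.2 CPM in the HFD fasted ones. Its mean was thus higher with fasting after CD and lower after HFD, and both pairs of groups overlapped. The interaction was -4.65 ± 1.24 (log2) for Pecam1 (edgeR adjusted p = 0.0378), -4.71 ± 1.19 for Cdh5, -4.43 ± 1.09 for Tie1, -4.06 ± 1.20 for Kdr, -3.53 ± 0.97 for Flt1 and -3.13 ± 0.94 for Egfl7 (edgeR adjusted p = 0.0482), while Tek, Vegfa, Emcn and Vwf did not pass.

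These 6 calls did not hold under several alternatives: 0 of the 10 were called with limma voom or with no filter on low counts, and between 0 and 10 without single libraries. They also moved with the mix of libraries in each group. Libraries low in epididymal markers made up 3 of 6 in CD fasted, 0 of 4 in CD fed, 1 of 5 in HFD fasted and 2 of 4 in HFD fed mice. Among the 13 others alone, 0 of the 10 were called, with Pecam1 at -0.65 and Egfl7 at -0.46. With the epididymal sum as a covariate 0 of the 10 were called. With the sum of the other endothelial markers 0 were called too, and the Egfl7 interaction was 0.19. That last fit decides nothing, since a sum of markers of the same cells takes away an endothelial difference whatever its origin. The smallest edgeR adjusted p of any gene for this interaction was 0.0366 in the main fit, not far below the threshold. The shares of all genes called under the alternatives are not given here, so their counts are not read as results about the 10. A value among the 6 libraries low in epididymal markers alone cannot be had, since no CD fed library is among them. The other endothelial markers went the same way (21 of 32 lower), as did adipocyte markers (6 of 6) and fibroblast markers (4 of 6). The part of tissue composition in the interaction was not tested beyond these values.

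For a fasting response that differs between the tissues edgeR called 0 of the 10, beside 2.73% of genes (2754 at an unadjusted p under 0.05). Vegfa was nearest to the threshold (1.39 ± 0.40; edgeR adjusted p = 0.0523), followed by Egfl7 (1.08 ± 0.48; edgeR adjusted p = 0.241). DESeq2 called 1 and limma voom 3, and the shares of all genes called there are not given here. All 10 differences, eWAT minus quadriceps, were above 0, with a median of 0.89 against 0.12 for all genes tested. They are not 10 separate results, since the 10 vary together in eWAT, where libraries low in epididymal markers are spread unevenly over the groups.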

How the data were processed

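As deposited, each file lists raw counts per Ensembl gene for 1 library. The submitters' processing notes name Bowtie2 2.2.5, TopHat2 2.1.0 and HTSeq 0.6.0 and build GRCm38. The tools' roles, the annotation release and the strand setting were not found in these sources. Summary lines for unassigned reads were left out of library sizes. Of 45232 identifiers, 44585 had a symbol in GENCODE M21, whose 1-based GRCm38 positions are printed. Reads carried no molecular identifiers.

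Genes were kept by filterByExpr and scaled by TMM in edgeR 4.0.16 (R 4.3.3), within each tissue (12213 genes in quadriceps, 16603 in eWAT) and over all 39 libraries (17083). Quasi-likelihood models with robust dispersions had 1 mean per group, with two-sided tests. Biological coefficients of variation in common were 0.203 in quadriceps, 0.779 in eWAT and 0.6 in the joint fit, whose single spread may be too large for quadriceps. The models were run on simulated counts for the fasting contrasts alone, with no mixture of tissues, and the outcome is not given here. Members and gene lists were chosen with earlier results of these data known. Named genes were the 10 members, up to 3 genes with the smallest p for fasting in quadriceps from each list, and the 5 genes most correlated (log2 CPM, prior count 2) with Egfl7, with Vegfa and with the mean of the other 9. Marker sums use CPM without TMM. Alternatives were RLE scaling, no filter, DESeq2 1.42.0, limma 3.58.1 voom with quality weights, 1 joint fit, leaving out Gm42418 (a gene overlapping ribosomal RNA) or each library, and the eWAT libraries above 1000 CPM of epididymal markers alone. Marker sums as covariates, the eWAT libraries at or below 1000 CPM alone, plain library sizes for the tissue comparison and the Kdr to Flt1 ratio were added after seeing the data.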

Additional observations from a re-analysis of the deposited data

Results flagged for a closer look

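In quadriceps HFD fasted replicate 3, 3 endothelial transcripts lay far above the other 5 libraries of their group: Cdh5 at 93.97 CPM (next highest 60.08), Tie1 at 53.12 CPM (next 34.76) and Flt1 at 44.2 CPM (next 32.87). In eWAT CD fed replicate 1, Vegfa was at 76.46 CPM, far below the next lowest of the 4 libraries at 144.1 CPM. These 4 flags come from 80 sets of 4 to 6 libraries, and chance flags about 1 set in 20. Without that quadriceps library, 2 of the 10 transcripts were called lower with fasting after juvenile HFD instead of 1. The share of all genes called without it is not given here.

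In eWAT the edgeR test of the juvenile diet by fasting interaction passed for 6 transcripts: Cdh5 (-4.71), Pecam1 (-4.65), Tie1 (-4.43), Kdr (-4.06), Flt1 (-3.53) and Egfl7 (-3.13, all log2). With no filter, limma voom, the 13 epididymis-rich libraries alone or either marker covariate 0 of the 10 passed. The endothelial covariate decides nothing here, since its markers mostly went the same way. Without single libraries between 0 and 10 passed, and the shares of all genes that passed under these alternatives are not given here. The epididymal marker sums given with these values in the report differ between the same groups.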

How the results depend on the processing

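For fasting in quadriceps 3 of 10 transcripts were called, and 5 with limma voom (Tek and Emcn besides Vegfa, Kdr and Egfl7) and 1 (Vegfa) in the joint fit of 39 libraries, whose spread is that of both tissues. After juvenile CD 3 were called and 0 in the joint fit. After juvenile HFD 1 was called, and 2 with DESeq2, 3 with limma voom, 0 in the joint fit and 2 without Gm42418. Without each library in turn the calls numbered 3 to 4, 2 to 4 and 1 to 2 for these 3 contrasts; the call after HFD went to 2 without CD fasted replicate 1 or 4, CD fed replicate 1 or HFD fasted replicate 3. The eWAT interaction went from 6 calls to 0 with no filter, limma voom, the epididymis-rich libraries alone or either marker covariate, to 10 in the joint fit, and to between 0 and 10 without single libraries. It was 0 without any of CD fasted replicates 1 to 3, CD fed replicates 1 to 4, HFD fasted replicate 1 or HFD fed replicates 2 and 3, 2 without HFD fasted replicate 2 or 5, and 10 without CD fasted replicate 5 or HFD fed replicate 1. The tissue difference of the fasting response had 0 calls, and 1 with RLE scaling, 1 with DESeq2, 3 with limma voom and 0 to 1 without single libraries (1 without eWAT CD fasted replicate 4, 5 or 6, HFD fasted replicate 1 or 3, or HFD fed replicate 2). The shares of all genes called under these settings are not given here, so the counts are not read as results about the 10. The cause of these changes was not tested, and the 0 under the endothelial covariate decides nothing, since its markers mostly went the same way.

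Directions turned for some transcripts, and those concerned for fasting in quadriceps had not been called. With the endothelial covariate, fasting in quadriceps became 0.0394 for Cdh5 and 0.0738 for Tie1 (log2), and Vwf ran from -0.0904 to 0.0324 without single libraries. The same covariate turned the eWAT interaction to 0.1912 for Egfl7, 0.1808 for Pecam1, 0.29 for Kdr, 8e-04 for Flt1, 0.3327 for Tek, 0.178 for Emcn and 0.4622 for Vwf, and the epididymis-rich libraries alone gave 0.1395 for Vwf. Against quadriceps, the 6 epididymis-poor libraries alone gave 1.134 for Egfl7, 0.3313 for Pecam1, 0.6749 for Kdr, 0.4083 for Tek, 0.7932 for Emcn and 0.0798 for Vegfa, and Egfl7 ran from -0.2181 to 0.0018 without single libraries. On plain library sizes the tissue comparison called 3 of the 10 instead of 8, with 1.1681 for Egfl7, 0.3284 for Pecam1, 0.3182 for Kdr, 0.2708 for Tek, 1.0044 for Emcn, 0.4149 for Vwf and 0.217 for Vegfa. The juvenile diet difference of Egfl7 in quadriceps ran from -0.53 to -0.39 without single libraries and from -0.47 to -0.40 under the 7 other settings. The endothelial covariate turned the juvenile diet difference above 0 for Cdh5 (0.0715), Kdr (0.2178), Flt1 (0.1077) and Tek (0.1018), and Tek reached 0.0538 without single libraries. That covariate, a sum of markers of the same cells, decides nothing in any of these comparisons. No paired analysis was possible because the labels give no replicate numbers or animals. The replicate numbers printed here were given in the order of the samples within each group and match nothing across groups or tissues. Emcn and Tek have the fewest counts, and epididymal transcripts limit every eWAT value.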
